A study of Mus musculus with 12 samples.

Results

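Macrophages sorted from the mammary ducts of mice were compared between all stages from pregnancy onward and the virgin gland, and the genes described are those that stood on the same side of virgin in pregnancy, in lactation and after weaning. The groups were pregnant mice at day 16.5, lactating mice, mice 1 month after weaning, and virgin mice. Each had 3 libraries labelled as biological replicates, so 9 libraries from pregnancy onward were set against 3 virgin libraries, which are all 12 libraries of the series. All mice were females of background strain C57BL/6, each library was made from 2000 freshly sorted cells, and the labels name no other allele, transgene or agent. Ages, the day of lactation, the number of pregnancies, how many animals went into a library and the gating of the cells are not given in the labels. The 3 later stages were weighted equally, and 36 of the 12672 genes tested passed an adjusted p of 0.05 on that average with the same sign at each stage.

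Ductal macrophages lie between and beneath the epithelial cells of the mammary tree, where they sample their surroundings and take up dying cells and debris as milk-producing alveoli form and later regress. Their survival depends on signalling through the CSF-1 receptor. Macrophages adjust cholesterol synthesis, lysosomal enzymes, adhesion molecules and scavenger receptors to what they meet, and they carry a set of early response genes, among them Egr1, Klf6 and Btg2, that are transcribed quickly and briefly after a stimulus.

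Expression was measured by RNA sequencing, and levels are given as CPM, the depth-scaled read count, taken here per TMM-adjusted library total. Totals ran from 6926273 to 21204704 counts a library. Of the genes that mark macrophages, Csf1r lay between 489 and 1669 CPM and Adgre1, which encodes F4/80, between 263 and 981 CPM from pregnancy onward, against 1033, 1051 and 1070.2 CPM and 820.3, 713 and 698 CPM in virgin libraries. Itgam, which encodes CD11b, was low, at 0 to 23.8 CPM in later libraries, against 10.7, 16.95 and 10.3 CPM in virgin libraries. None of the 3 genes was called on the average or at any stage. Of the other macrophage markers, Lyz2 and Cx3cr1 were each called at 1 stage, and none was called on the average. Mrc1 and Mertk fell at some stages without a call. Log2 fold changes in pregnancy were 2.74 for Lyz2 (edgeR adjusted p = 0.0152) and -4.42 for Mrc1 (0.0955). In lactation they were -0.899 for Cx3cr1 (0.0466), -4.22 for Mertk (0.103) and -3.27 for Mrc1 (0.149). Cd74, H2-Ab1, Itgax, Cd68, Ptprc and Fcgr1 had no call at any stage. Lactating replicate 3 stood apart: milk protein and secretory genes took 8.62% of its counts and core macrophage genes 1.86%, against 4.35 to 6.39% for core macrophage genes in the other later libraries and 3.45 to 4.005% in virgin libraries. Nuclear long noncoding RNAs took 4.17% of its counts, against 0.605 to 1.41% in the other later libraries and 0.908 to 1.31% in virgin libraries. It had the fewest genes detected, 10178, against 11412 to 13790 in the other later libraries and 11295 to 13207 in virgin libraries. Without it, all 36 genes were still called in edgeR's test, and 35 of them had 1 sign at all 3 stages. In bulk libraries, fewer cells of a type and less RNA per cell cannot be told apart. Counting bounds below cover counting error only, and the p-values measure the spread between libraries labelled as replicates.

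Among the genes higher from pregnancy onward were the transcription regulator genes Bhlhe40 and Zmynd15, the mevalonate pathway gene Hmgcs1, the acid phosphatase gene Acp5, the integrin gene Itgal, the amino acid transporter gene Slc38a1, and 5 genes with at most 1 count over the virgin libraries, which include Csf1, Colec12 and 2 casein genes. Among the lower ones were the early response and feedback genes Egr1, Klf6, Ier5, Btg2, Zfp36l1 and Nfkbiz, the receptor genes Trem2 and Fcrls, and genes that act on RNA, Pcf11, Nufip2 and Tut4. In all, 38 of the 12672 genes were called on the average (0.300%), 14 higher and 24 lower, and 1400 (11%) had an unadjusted p under 0.05. The same direction at all 3 stages was met by 36 of them (0.284% of genes tested), 14 higher (0.110%) and 22 lower (0.174%). Over all genes tested, called or not, 5708 (45%) had 1 sign at all 3 stages, and these comparisons share their virgin libraries. For 26 of the 36 genes, 13 higher and 13 lower, the 9 later libraries did not overlap the 3 virgin libraries. Over all genes tested 253 (2%) had no such overlap, 107 (0.844%) with every later library above and 146 (1.15%) with every later library below. The 36 genes were chosen on the same difference in the same libraries, so their lack of overlap is no independent support.

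The count rested on few libraries. It was 0 in edgeR's test without Virgin replicate 2, with 1125 genes at an unadjusted p under 0.05, and 27 and 3 without Virgin replicates 1 and 3. It lay between 4 and 8 without 1 of the pregnant libraries and between 3 and 4 without 1 of the post-weaning libraries, but reached 56, 41 and 173 without Lactating replicates 1, 2 and 3. Only Bhlhe40, Hmgcs1, Zmynd15 and Zfp959 lost their call in at most 2 of these 12 fits; the other 32 genes lost theirs in 6 to 11. All 36 kept their sign in each fit, but each fit reuses most of the libraries on which the genes were chosen. The plot of counts with 1 library left out shows how far apart the counts were.

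**Figure D1:**
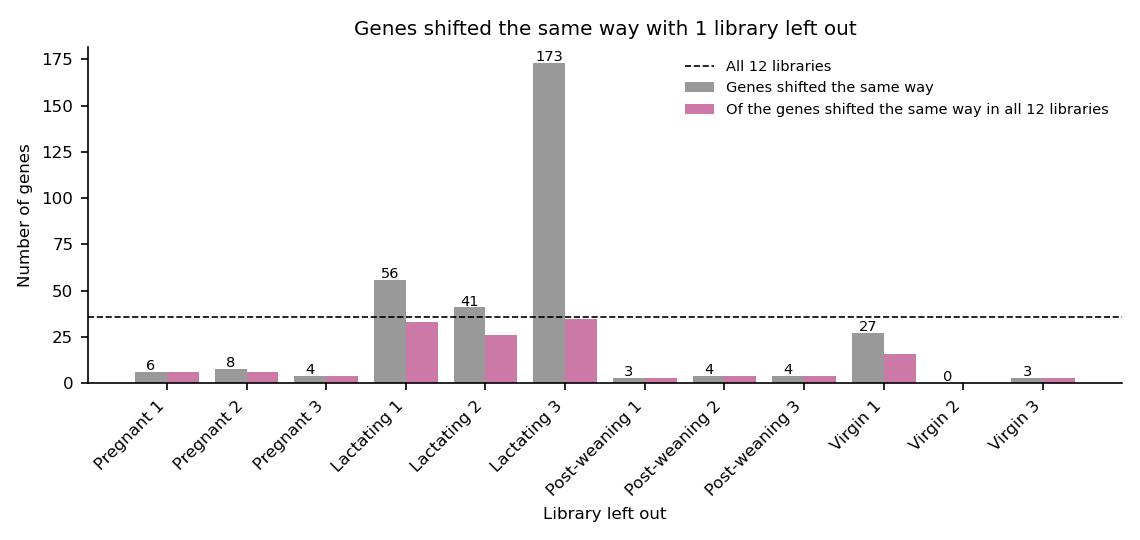
Number of genes (vertical axis) called on the average with the same sign at all later stages when 1 library (horizontal axis) was left out; grey bars are all such genes, pink bars those among the 36 found with all 12 libraries, and the dashed line marks 36. The grey bars run from 0 without Virgin replicate 2 to 173 without Lactating replicate 3.

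Bhlhe40 and Zmynd15 had the smallest adjusted p-values of the 36 genes. Bhlhe40 encodes a basic helix-loop-helix transcription factor that mostly represses its targets and takes part in circadian and immune regulation; the gene lies on chromosome 6, 108660629 to 108666925, in GRCm38.p6, the build of all coordinates here. It had 231, 219 and 259 CPM in pregnant, 286, 391 and 283 CPM in lactating and 171, 210.02 and 181 CPM in post-weaning libraries, against 73.4, 52.1 and 74.6 CPM in virgin libraries. Every later library was above every virgin library, and even the lowest, a post-weaning one, stood well clear of the highest virgin one. The average log2 fold change was 1.86 ± 0.19 (SE; edgeR adjusted p = 0.00674), and it was 1.83 ± 0.21 in pregnancy, 2.26 ± 0.22 in lactation and 1.49 ± 0.21 after weaning. The call ended without Virgin replicate 2 (adjusted p = 0.0732).

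Zmynd15 encodes a MYND zinc finger protein known in mice as a transcriptional repressor of the male germ line. Its levels were 293, 283 and 279 CPM in pregnant, 670.2, 631 and 532 CPM in lactating and 264, 312 and 331 CPM in post-weaning libraries, against 161, 125 and 124 CPM in virgin libraries. The lactating libraries were highest, the pregnant and post-weaning ones formed a lower band, and none overlapped virgin. The average log2 fold change was 1.46 ± 0.16 (edgeR adjusted p = 0.00711). Zmynd15 (chromosome 11, 70459433 to 70466204) overlaps the chemokine gene Cxcl16, and without strand information reads from the overlap cannot be told apart; Cxcl16 itself had an average log2 fold change of -0.01 ± 0.18 (adjusted p = 0.9999). The call of Zmynd15 ended without Virgin replicate 2 (adjusted p = 0.0732) and without Virgin replicate 3 (adjusted p = 0.0593).

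**Figure D2:**
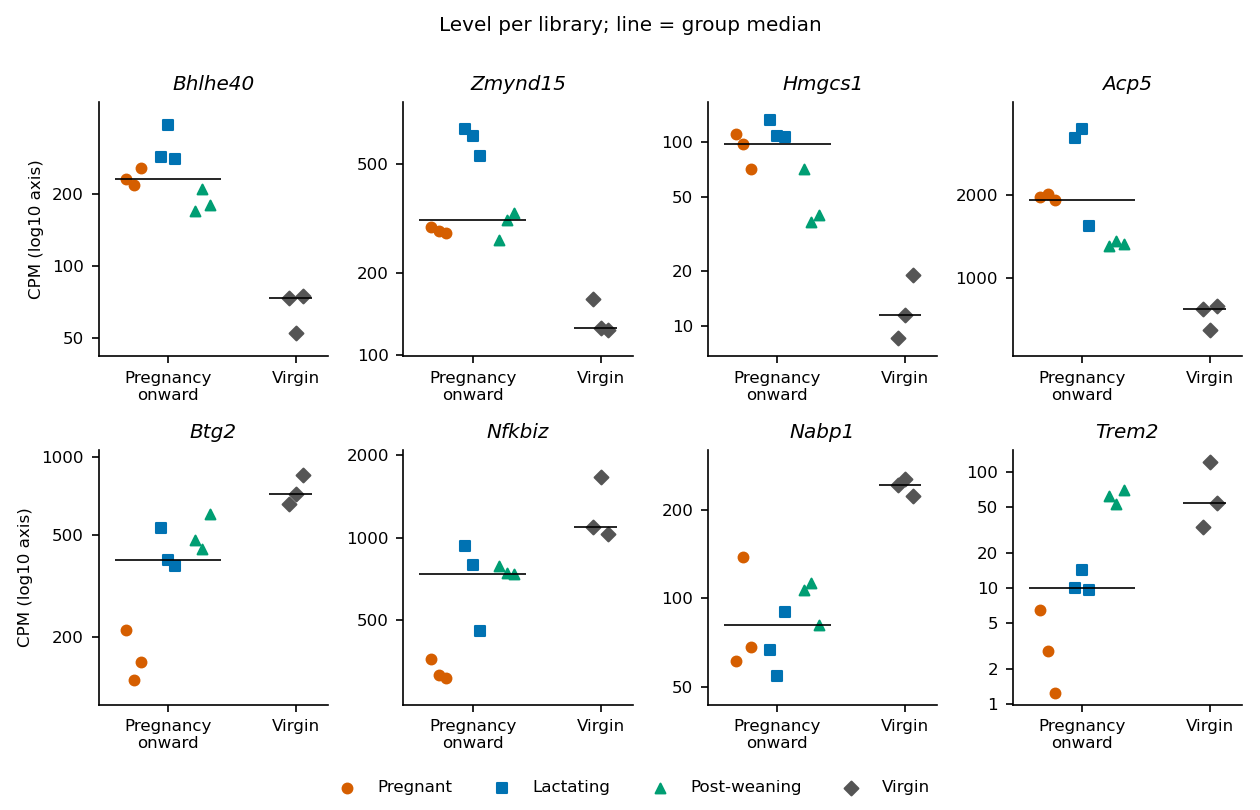
CPM of 8 of the 36 genes in each library (vertical axis, log10 scale, a separate range per gene); orange circles are pregnant, blue squares lactating and green triangles post-weaning libraries, shown left of the grey virgin libraries, and lines mark the median of the 9 later and of the 3 virgin libraries. For Bhlhe40, Zmynd15, Hmgcs1 and Acp5 every later library is above virgin, for Btg2, Nfkbiz and Nabp1 every one is below, and for Trem2 the post-weaning libraries lie among the virgin ones.

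Hmgcs1 encodes cytosolic HMG-CoA synthase, an early enzyme of the mevalonate pathway that makes cholesterol and is controlled by sterol-responsive transcription factors of the SREBP family. It was at 109.5, 97.5 and 70.6 CPM in pregnant, 131, 108 and 105 CPM in lactating and 71.3, 36.7 and 39.8 CPM in post-weaning libraries, against 8.61, 11.5 and 19.1 CPM in virgin libraries. Lactating libraries were high as a group, post-weaning libraries were nearest to virgin, and no later library overlapped virgin. The average log2 fold change was 2.62 ± 0.34 (edgeR adjusted p = 0.0145), and the call ended without Virgin replicate 2 (adjusted p = 0.111). Of the 24 tested genes of cholesterol synthesis and uptake, Hmgcs1 was the only one called in the same direction at every stage, 20 had an average above 0, and the list's median was 1.23 on the average, against -0.06 over all genes tested. That median was 0.73 in pregnancy, 2.50 in lactation and 0.35 after weaning. Over all genes tested, 5900 of 12672 had an average above 0. On the cholesterol list 14 genes were higher and 1 was lower at all 3 stages, called or not.

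The RefSeq promoter windows of the genes, available for 25 of the 36, were searched on both strands for 6 motifs chosen after these results were seen: TGACGTCA, which CREB family factors bind, TGANTCA, the AP-1 element, CACGTG, an E-box, CACCCCAC, a sterol regulatory element, and the CArG box and NF-kB elements. Motifs were searched separately, so a base could count for more than 1 of them. Windows run from 250 bases before to 50 after the start site. Hmgcs1 was the only one of the genes whose window held CACCCCAC, which 2.87% of 32851 windows did. The 250 bases before its start site (GRCm38.p6, chr13:119690101-119690350, plus strand) are shown because Hmgcs1 had the largest rise of the genes detected in every virgin library; capitals mark the motif, from base 115.
Hmgcs1: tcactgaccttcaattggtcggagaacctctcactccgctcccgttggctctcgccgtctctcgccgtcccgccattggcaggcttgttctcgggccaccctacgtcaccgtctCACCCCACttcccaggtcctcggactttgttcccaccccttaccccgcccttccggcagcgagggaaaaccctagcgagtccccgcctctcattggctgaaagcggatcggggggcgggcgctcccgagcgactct
Such a match describes the letters of the window and no measured binding.

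Genes for enzymes, adhesion and transport rose by smaller amounts. Acp5, which encodes tartrate-resistant acid phosphatase, a lysosomal enzyme prominent in osteoclasts and some tissue macrophages, had 1304, 1919 and 3483 CPM in the lowest, median and highest library from pregnancy onward, against 771, 648 and 792 CPM in virgin libraries, with lactating replicates 1 and 2 highest and the post-weaning libraries lowest among the later ones. The average log2 fold change of Acp5 was 1.39 ± 0.23 (edgeR adjusted p = 0.0376). Of the 46 tested lysosomal hydrolase and proton pump genes it was the only one called, and the list's median was 0.25.

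Itgal encodes the alpha chain of the leukocyte integrin LFA-1, which binds ICAM adhesion molecules. It ranged over 60.4, 84.9 and 156 CPM (lowest, median and highest) from pregnancy onward, against 38.7, 38.8 and 31.1 CPM in virgin libraries, and the pregnant libraries were highest. Its average log2 fold change was 1.29 ± 0.21 (edgeR adjusted p = 0.0323), and it was the only one of the 19 tested integrin genes called, with a list median of -0.01. Slc38a1 encodes a sodium-coupled transporter of glutamine and other neutral amino acids. Its levels were 129.8, 113 and 126 CPM in pregnant, 204, 236 and 113 CPM in lactating and 47.1, 43.5 and 45.6 CPM in post-weaning libraries, against 41.4, 36.4 and 35.97 CPM in virgin libraries. The post-weaning libraries were just above virgin and the others clearly so, and the average log2 fold change was 1.41 ± 0.23 (edgeR adjusted p = 0.0302).

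3 further genes rose modestly. Fastkd3, which encodes a mitochondrial RNA-processing protein, had 28.7, 66.3 and 117 CPM (lowest, median and highest) in the later libraries, against 16.5, 27.7 and 13.7 CPM in virgin libraries (average log2 fold change 1.63 ± 0.28, edgeR adjusted p = 0.0458). It overlaps Mtrr, whose own average was 1.23 ± 0.63 (adjusted p = 0.522). Fam189a2 had 100.2, 149.8 and 169 CPM in later libraries, against 76.4, 53.8 and 59.4 CPM in virgin libraries (1.15 ± 0.20, edgeR adjusted p = 0.0478), and its 3 stage values were close, 1.30 in pregnancy, 1.00 in lactation and 1.16 after weaning. Rilpl2, which encodes a partner of Rab GTPases in membrane transport, was the only higher gene to overlap virgin. Its lactating libraries had 353, 373 and 576 CPM, far above its pregnant (121, 102 and 126 CPM) and post-weaning (141, 129 and 124 CPM) libraries, against 83.3, 104 and 87.8 CPM in virgin libraries (average log2 fold change 1.03 ± 0.19, edgeR adjusted p = 0.0478).

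Csf1 and Colec12 had 0 counts in all 3 virgin libraries and counts in all 9 later ones. Csf1 encodes CSF-1, the growth factor that sustains macrophages. It had 0.445, 2.41 and 1.66 CPM in pregnant, 14.03, 73.6 and 28.9 CPM in lactating and 8.15, 3.16 and 6.40 CPM in post-weaning libraries, which in pooled counts is at least 129-fold higher than a floor of 3 counts over the virgin group (edgeR adjusted p = 0.0302). Levels were lowest in pregnancy and highest in lactation. Of the 20 tested growth factor genes Csf1 was the only one called, and the list's median was 0.02, or 0.11 with genes absent from a stage set at their bound. Colec12 encodes a scavenger receptor of the collectin family that binds sugars and oxidized lipoproteins. It had 8.34, 12.05 and 27.1 CPM in pregnant, 2.95, 9.68 and 5.002 CPM in lactating and 12.9, 9.69 and 16.9 CPM in post-weaning libraries, at least 168-fold higher than the virgin floor (edgeR adjusted p = 0.0279). The pregnant libraries overlapped both other stages, while every lactating library was below every post-weaning one, by a small margin at the closest. A further gene of this kind, 1700071M16Rik, had 2.51, 19.1 and 40.6 CPM (lowest, median and highest), at least 204-fold above the virgin floor (edgeR adjusted p = 0.029). It overlaps Pla2g7, which encodes a phospholipase that cleaves platelet-activating factor, and Pla2g7 had an average log2 fold change of 0.96 ± 0.24 (adjusted p = 0.157). Both Csf1 and Colec12 lost their calls when 1 pregnant or 1 post-weaning library, whichever it was, was left out, and without Virgin replicate 2 or 3, and Csf1 also without Virgin replicate 1 or Lactating replicate 2. The bounds of Csf1, Colec12 and 1700071M16Rik were 82.7, 107 and 130.3 without Virgin replicate 2 and 78.8, 102 and 124 without Virgin replicate 3, and that of Csf1 was 85.5 without Lactating replicate 2.

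The casein genes Csn1s1 and Csn2, which encode milk proteins made by secretory epithelial cells, had the largest differences. Csn1s1 had 1322, 201 and 314 CPM in pregnant, 415, 331 and 8819.98 CPM in lactating and 304, 207 and 60.9 CPM in post-weaning libraries, and 0 counts in the virgin group, so its pooled counts were at least 15916-fold higher (edgeR adjusted p = 0.0478). Csn2 had 3111, 316 and 456 CPM in pregnant, 286, 243 and 14394 CPM in lactating and 39.8, 47.1 and 17.7 CPM in post-weaning libraries, and 1 count over the virgin libraries, a pooled ratio of 75915 with an exact 95% counting interval of 13625 to 2998500.00 (edgeR adjusted p = 0.0478). Lactating replicate 3 was far above all others for both genes, and both were detected 1 month after weaning. Without it the bound of Csn1s1 was 4304-fold and the ratio of Csn2 18790.4 (3372 to 742196). Pooled counts do not weight the 3 stages equally, so these folds lean on the libraries with most counts. Post-weaning libraries averaged 34.9 CPM for Csn2, against 4974 CPM in lactating ones. Leaving out Virgin replicate 2 gave a bound of 10179 for Csn1s1, and leaving out Virgin replicate 3 one of 9698. The ratio of Csn2 was 48550.00 (8714 to 1917630.00) without Virgin replicate 2, and without Virgin replicate 3, which held its only virgin count, Csn2 was at least 15419-fold higher. Of the 20 tested milk protein and secretory genes these were the only 2 called, 19 had an average above 0, 9 had 0 counts over the virgin libraries, among them Wap and Glycam1, and the list's median was 5.91, or 5.197 with genes absent from a stage set at their bound. Over all genes tested, 5900 of 12672 had an average above 0. The 9 genes with 0 virgin counts passed the count filter only through later libraries, so their averages could only be above 0. Pthlh, with 22 virgin counts and 0 at each later stage, was not tested. The whole milk list took 0.286 to 8.62% of the counts of the later libraries and 0.154 to 0.181% in virgin libraries. In virgin libraries Plin2 (28808 counts) and Trf (26593) held most of that share, and the next gene, Csn3, had 1172 counts. Casein genes therefore held little of the virgin share, and Csn1s2a also had 0 virgin counts. The part of epithelial transcripts in the levels of the other genes was not tested.

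Early response and feedback genes made up the largest named group among the lower genes. Of 24 tested immediate early transcription factor genes, Egr1, Ier5 and Klf6 were called lower in the same direction at each stage and none higher; 20 had an average below 0, and the list's median was -0.92. Of 25 tested induced feedback and stress regulators, Btg2 and Zfp36l1 were called lower, 21 had an average below 0, and the median was -0.64. Of 16 NF-kB subunit and inhibitor genes, Nfkbiz was called lower, and the median was -0.24. All genes tested had a median of -0.06, and 6772 of the 12672 had an average below 0. At all 3 stages, called or not, 11 of the 24 immediate early genes were lower and 1 was higher. Of the 25 feedback genes 11 were lower and 2 higher, and of the 16 NF-kB genes 4 were lower and 1 higher. Among all genes tested 5708 (45%) had 1 sign at all 3 stages, in either direction. The medians of the 3 lists were far from 0 in pregnancy, at -1.73, -1.43 and -1.01 in that order. They were nearer to 0 in lactation (-0.30, -0.13 and 0.40) and after weaning (-0.16, -0.27 and -0.08). Most tested markers of 3 other cell types also had log2 fold changes below 0 in pregnancy, with a median of -4.46 for 19 tested endothelial genes, all 19 below 0, -3.74 for 16 fibroblast genes, 14 below 0, and -3.48 for 9 monocyte and neutrophil genes, 8 below 0. With genes absent from pregnancy set at their bound these medians were -4.43, -3.74 and -1.99. In pregnant libraries Emcn, Flt1, Sox17, Sox18 and Tek of the endothelial list, Col6a1 and Pdgfrb of the fibroblast list and Fn1, Ly6c2 and Plac8 of the monocyte and neutrophil list had 0 counts. The endothelial list summed to 0.000627 to 0.00351% of counts in pregnant and 0.00807 to 0.0409% in virgin libraries. The fibroblast list summed to 0.0563 to 0.0674% in pregnant and 0.0349 to 0.0897% in virgin libraries, and the monocyte and neutrophil list to 0.0172 to 0.0258% in pregnant and 0.0334 to 0.0368% in virgin libraries. Their part in the early response result was not tested.

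Btg2, an antiproliferative gene whose protein promotes mRNA deadenylation, had 214, 137 and 161 CPM in pregnant, 531, 399 and 378 CPM in lactating and 477, 439 and 602 CPM in post-weaning libraries, against 656, 719 and 849 CPM in virgin libraries. Every later library was below virgin, and the pregnant ones were lowest. The average log2 fold change was -1.14 ± 0.17 (edgeR adjusted p = 0.029), and it fell by 2.12 in pregnancy alone. Its promoter window was the only one of the genes to hold TGACGTCA, which 1.79% of windows did. It is shown (GRCm38.p6, chr1:134079156-134079405, minus strand) as the promoter of an early response gene that lay below virgin in every later library, with the motif in capitals from base 85.
Btg2: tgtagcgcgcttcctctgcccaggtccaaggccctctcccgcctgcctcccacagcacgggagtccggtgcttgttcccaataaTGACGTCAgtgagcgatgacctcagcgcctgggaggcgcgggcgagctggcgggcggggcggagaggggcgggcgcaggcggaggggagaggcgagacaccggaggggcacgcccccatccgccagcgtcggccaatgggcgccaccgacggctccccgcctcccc

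Egr1, a zinc finger transcription factor, had 318, 230.2 and 237 CPM in pregnant, 601, 269 and 659 CPM in lactating and 1308, 1136 and 1072 CPM in post-weaning libraries, against 977, 1797 and 1797 CPM in virgin libraries. The post-weaning libraries lay within the virgin range and the others below it (average log2 fold change -1.50 ± 0.25, edgeR adjusted p = 0.0378). Klf6, a Krüppel-like transcription factor, had 398, 383 and 422 CPM in pregnant, 958, 827 and 1078 CPM in lactating and 1029, 878 and 935 CPM in post-weaning libraries, against 1059, 1446 and 1639 CPM in virgin libraries. Only Lactating replicate 3 exceeded the lowest virgin library (average -0.95 ± 0.15, edgeR adjusted p = 0.0302). Ier5, whose product modulates heat shock factor and growth responses, had 281, 376 and 445 CPM (lowest, median and highest) in the later libraries, against 539.97, 821 and 671 CPM in virgin libraries, with no overlap (average -0.92 ± 0.14, edgeR adjusted p = 0.029).

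Nfkbiz encodes IκBζ, a nuclear regulator of NF-kB target genes. Its levels were 309.8, 736 and 934 CPM (lowest, median and highest) from pregnancy onward, against 1095, 1657 and 1029.6 CPM in virgin libraries, and the pregnant libraries were lowest (average log2 fold change -1.15 ± 0.20, edgeR adjusted p = 0.0478). Zfp36l1 encodes a protein that binds AU-rich elements and hastens mRNA decay. It had 36.1, 66.7 and 80.6 CPM in later libraries, against 109, 165 and 130.3 CPM in virgin libraries (average -1.21 ± 0.18, edgeR adjusted p = 0.029). Phlda1, an early induced gene of the pleckstrin homology-like family, had 12.3, 61.1 and 80.6 CPM in later libraries, against 94.3, 204 and 131 CPM in virgin libraries (average -1.65 ± 0.26, edgeR adjusted p = 0.0302). None of these 3 genes had a later library within the virgin range.

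Trem2 and Fcrls, both on the list of resident and microglia-like macrophage genes, were lower mainly in pregnancy and lactation. Trem2 encodes a receptor for lipids and apoptotic cells. It had 6.45, 2.87 and 1.24 CPM in pregnant, 10.05, 14.4 and 9.65 CPM in lactating and 62.1, 53.2 and 69.7 CPM in post-weaning libraries, against 33.4, 123 and 53.7 CPM in virgin libraries. The pregnant and lactating libraries lay below all virgin ones and the post-weaning libraries among them; the stage log2 fold changes were -4.33, -2.62 and -0.18 in pregnancy, lactation and after weaning, and the average was -2.38 ± 0.43 (edgeR adjusted p = 0.0478). Fcrls, an Fc receptor-like gene used in mice as a microglial marker, had 0 counts in all pregnant and lactating libraries and 23.99, 7.04 and 5.10 CPM in post-weaning libraries, against 4.36, 47.4 and 31.2 CPM in virgin libraries. In pooled counts Fcrls was at least 424-fold lower in pregnant and at least 229-fold lower in lactating than in virgin libraries, with a floor of 3 counts over a stage (edgeR adjusted p of the average = 0.0323). These bounds were 179 without Pregnant replicate 3 and 114 without Lactating replicate 3. Of the 19 tested genes of that list these were the 2 called, and its median was -0.13. Of 28 tested genes of apoptotic cell uptake, Trem2 was called lower and Colec12 higher, with a median of 0.04.

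The window of Trem2 (GRCm38.p6, chr17:48346151-48346400, plus strand) held TGANTCA just before the start site. At other positions the motif was also found in windows of Slco2b1, after its start site, of Zfp36l1 and of Csn1s1, and 7.81% of all windows held it anywhere. It is printed because Trem2 had the largest pregnancy difference among the lower genes detected in every library, and the capitals mark the motif from base 242.
Trem2: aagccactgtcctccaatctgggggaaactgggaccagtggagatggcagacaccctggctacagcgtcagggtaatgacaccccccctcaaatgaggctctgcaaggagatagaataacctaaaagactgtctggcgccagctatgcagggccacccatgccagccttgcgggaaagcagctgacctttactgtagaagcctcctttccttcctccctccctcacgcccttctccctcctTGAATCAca

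Among the other lower genes of the cell surface and lipid mediators, Slco2b1, a transporter of organic anions, had 53.9, 91.4 and 142 CPM (lowest, median and highest) in later libraries, against 172, 216 and 151 CPM in virgin libraries, with no overlap (average log2 fold change -1.06 ± 0.16, edgeR adjusted p = 0.029). With Slc38a1 it made up the 2 called of 31 tested solute carrier genes, 1 in each direction. Plxdc2, a transmembrane protein with a plexin domain, had 17.2, 39.4 and 119 CPM in later libraries, against 193, 129.6 and 179 CPM in virgin libraries, again with no overlap (average -1.79 ± 0.28, edgeR adjusted p = 0.0302). Hpgd encodes the dehydrogenase that inactivates prostaglandins. It had 269, 322 and 280.3 CPM in pregnant, 345, 294 and 264 CPM in lactating and 667, 919 and 704 CPM in post-weaning libraries, against 865, 746 and 680.1 CPM in virgin libraries (average -0.91 ± 0.15, edgeR adjusted p = 0.0323). After weaning its libraries lay around the virgin ones, with a log2 fold change of -0.001 ± 0.19, and without Lactating replicate 3 that value was 0.01. Its post-weaning sign is therefore not resolved, and Hpgd met the rule of 1 direction only by the sign of a value near 0.

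Pcf11, Nabp1 and Nufip2, which act on RNA or DNA, had stage log2 fold changes between -1.77 and -0.85. Pcf11, a subunit gene of the machinery that cleaves pre-mRNA 3′ ends, had 50.02, 83.3 and 106 CPM (lowest, median and highest) in the later libraries, against 198, 241 and 164 CPM in virgin libraries (average log2 fold change -1.30 ± 0.23, edgeR adjusted p = 0.0478). Nabp1, which encodes a single-stranded DNA binding protein of the damage response, had 54.3, 80.9 and 138 CPM in later libraries, against 243, 255 and 224 CPM in virgin libraries (average -1.49 ± 0.24, edgeR adjusted p = 0.0302). Nufip2, which encodes an RNA-binding partner of FMRP, had 71.1, 123 and 147 CPM in later libraries, against 223, 279.99 and 232 CPM in virgin libraries (average -1.09 ± 0.20, edgeR adjusted p = 0.0478). For all 3 genes every later library was below every virgin one, and the test among the later stages gave edgeR adjusted p = 0.909, 0.633 and 0.537 in that order. Tut4, a terminal uridylyltransferase gene, was low throughout, at 0.334, 0.688 and 2.28 CPM in pregnant and 4.49, 3.47 and 2.25 CPM in post-weaning libraries and 1 count over the lactating libraries, against 4.59, 38.3 and 12.3 CPM in virgin libraries (edgeR adjusted p = 0.0401).

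Exoc6, a subunit gene of the exocyst, which tethers vesicles at the plasma membrane, had 35.98, 47.03 and 100.3 CPM (lowest, median and highest) in later libraries, against 127, 109.8 and 91.5 CPM in virgin libraries (average log2 fold change -0.99 ± 0.18, edgeR adjusted p = 0.0478), and Sowahc had 85.8, 138 and 174 CPM in later libraries, against 273, 329.6 and 226 CPM in virgin libraries (average -1.05 ± 0.19, edgeR adjusted p = 0.0478). Only Exoc6 overlapped virgin, through its post-weaning libraries. Gng12, a G protein gamma subunit gene, had 1.56, 0.115 and 0.745 CPM in pregnant and 27.7, 15.6 and 20.6 CPM in post-weaning libraries and 0 counts in lactation, at least 342-fold lower than virgin libraries, which had 16.2, 69.01 and 42.03 CPM (edgeR adjusted p of the average = 0.0145). Gipc2, a PDZ domain gene, had 0 counts in pregnancy and lactation and 2.84, 5.202 and 4.67 CPM after weaning, against 8.72, 10.5 and 25.4 CPM in virgin libraries, so it was at least 221-fold lower in pregnant and at least 119.6-fold lower in lactating than in virgin libraries (edgeR adjusted p = 0.0302). Both genes thus had counts in every post-weaning and every virgin library. Without Lactating replicate 3 the lactation bounds were 169.9 for Gng12 and 59.4 for Gipc2, and without Pregnant replicate 3 the pregnancy bound of Gipc2 was 93.6. Without Virgin replicate 3 the bounds of Gipc2 were 136 in pregnancy and 73.6 in lactation. Zfp959, a zinc finger gene, had 53.5, 68.8 and 11.6 CPM in pregnant and 27.6, 36.3 and 9.77 CPM in post-weaning libraries and 2 counts over the lactating ones, against 150.1, 87.3 and 62.2 CPM in virgin libraries (edgeR adjusted p = 0.0145). For Gng12, Gipc2, Zfp959, Tut4, Krt19 and Fcrls the fitted averages, -6.19, -7.50, -4.41, -4.99, -5.44 and -7.90, depend on a prior count added where a stage had few or no counts and are no bounds. Gng12 overlaps 4930597O21Rik and Bhlhe40 overlaps 0610040F04Rik, neither of which had enough counts to be tested.

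Krt19 encodes keratin 19, a structural protein of luminal epithelial cells rather than of macrophages. It had 26.02, 15.7 and 12.6 CPM in pregnant and 147, 74.7 and 33.01 CPM in post-weaning libraries and 0 counts in lactation, at least 928-fold lower in lactating than in virgin libraries, which had 57.7, 35.02 and 246 CPM (edgeR adjusted p of the average = 0.029). Virgin replicate 3 held 3363 of the 4308 virgin counts; the bound was 334 without it and 461 without Lactating replicate 3. The pregnant libraries were below virgin and the post-weaning ones among or just under the virgin values, so the groups overlapped. Of the 20 tested luminal epithelial genes Krt19 was the only one called, 15 had an average below 0, and the median was -1.58, or -1.01 with genes absent from a stage set at their bound. Over all genes tested, 6772 of 12672 had an average below 0. The luminal list's stage medians were -1.795 in pregnancy, -4.28 in lactation and 0.71 after weaning. With genes absent from a stage set at their bound, the lactation median was -3.955. At all 3 stages 6 of the luminal genes were lower and 3 higher. The whole luminal list took 0.0169 to 0.153% of counts in later libraries and 0.02 to 0.133% in virgin libraries, and the part of luminal transcripts in the result was not tested.

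**Figure D3:**
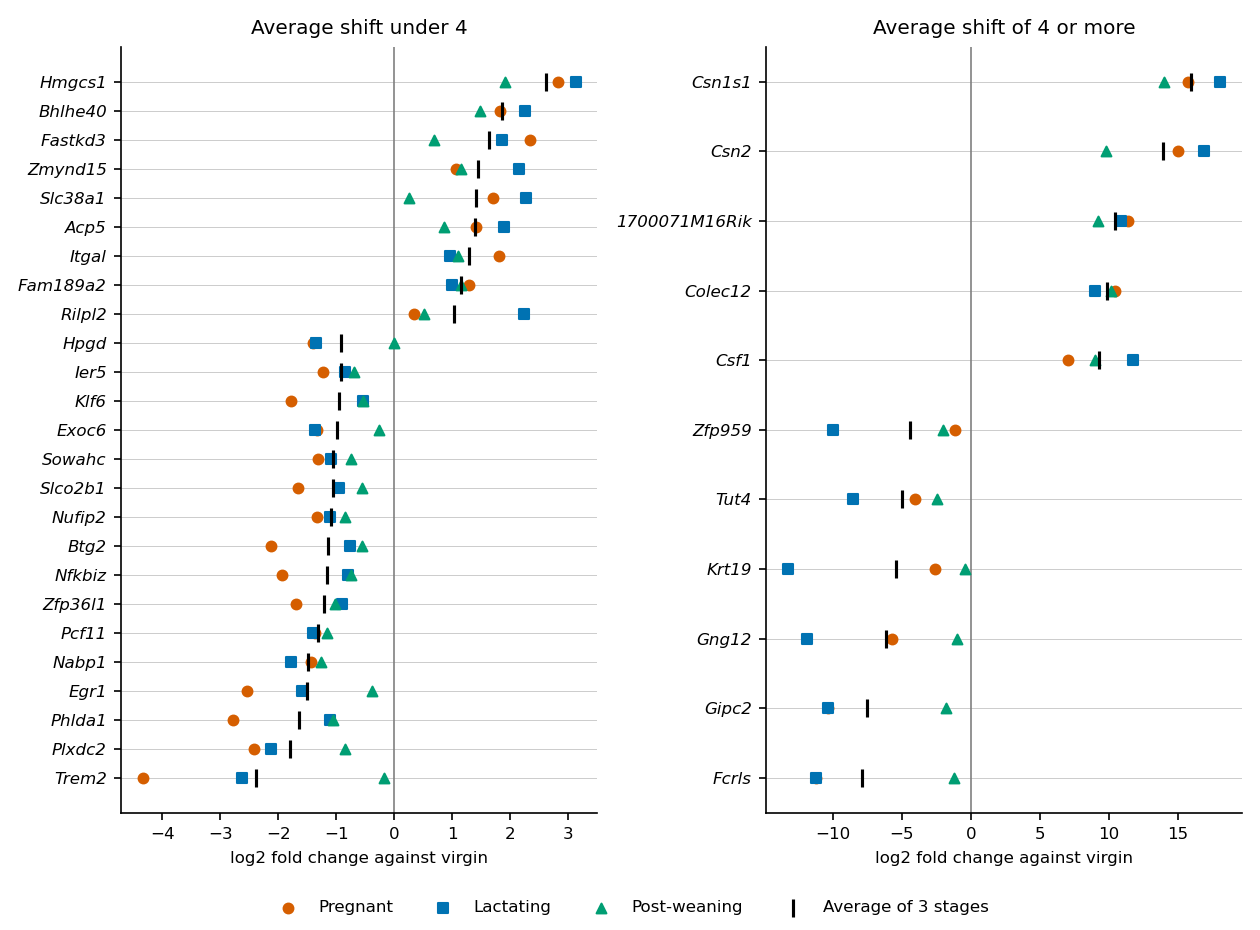
Log2 fold change against virgin (horizontal axis) of the 36 genes (vertical axis) in pregnancy (circles), lactation (squares) and after weaning (triangles), with the average of the 3 stages as a bar; genes with an average of 4 or more in size are in the right panel. The post-weaning value is the smallest in size for 8 of the 14 higher and 19 of the 22 lower genes, and extreme values in the right panel depend on a prior count where a stage had 0 counts.

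The genes shared a direction but not a size. Pregnancy held the largest difference for 5 of the 14 higher and 15 of the 22 lower genes, lactation for 9 of each with ties counted under both, and the post-weaning stage for none of the 36. After weaning the difference was the smallest of the 3 stages for 8 higher and 19 lower genes, and it was under 1 on the log2 scale for 18 of the 36. Against virgin alone, edgeR called 167 genes in pregnancy (1.32% of genes tested), 246 in lactation (1.94%) and 0 after weaning (0.00%), where 765 had an unadjusted p under 0.05. Post-weaning calls numbered 123 with DESeq2, 14 with limma-voom and 1 with limma-voom and quality weights, and edgeR gave 10 without Lactating replicate 3. Of the 36 genes, 30 were called in pregnancy, 27 in lactation, 21 in both and 0 after weaning; single-stage results reuse the libraries of the average. No gene (0.00%) was called at all 3 stages in edgeR's test, while 164 had an unadjusted p under 0.05 at each, 23 of the 36 among them. DESeq2 called 45 genes at all 3 stages, limma-voom 3, and limma-voom with quality weights 1.

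Whether the amounts differed was tested in the same fit of 12 libraries, by a contrast among the 3 later stages that leaves the virgin mean out. Here 421 of the 12672 genes (3.32%) were called, and 19 of the 36. The smallest adjusted p was that of Rilpl2 (0.00092), high in lactation, followed by Hpgd (0.00247), near virgin after weaning, and Zfp959 (0.00304), nearly absent in lactation. Genes for which the later stages gave no call include Fam189a2 (0.762), Colec12 (0.57), Bhlhe40 (0.133) and Hmgcs1 (0.167); this does not show that their stages were alike.

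A pair of called genes did not keep 1 direction. Fos, a subunit gene of AP-1, had 610.3, 438 and 547 CPM in pregnant, 618, 492 and 541 CPM in lactating and 2132, 1672 and 1528 CPM in post-weaning libraries, against 1375, 1731 and 1979 CPM in virgin libraries. Its average log2 fold change was -1.08 ± 0.17 (edgeR adjusted p = 0.0302), but its post-weaning libraries overlapped the virgin range and that stage's value was 0.07. Mettl21a, a protein lysine methyltransferase gene, had 0 counts in lactation, 18.9, 38.7 and 27.7 CPM in pregnant and 18.9, 16.01 and 10.4 CPM in post-weaning libraries, against 26.7, 24.5 and 25 CPM in virgin libraries (edgeR adjusted p of the average = 0.0145). Its pregnancy value was 0.16.

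At the threshold, 10 genes shared the largest adjusted p, 0.0478: Csn1s1, Csn2, Fam189a2, Rilpl2, Exoc6, Sowahc, Nufip2, Nfkbiz, Pcf11 and Trem2. The genes just outside were Adamdec1 (0.0506), Skil (0.0506), Cd300lf (0.0529) and Ccnl1 (0.0562). Adamdec1, a metalloprotease gene expressed by macrophages, had 1014, 1339 and 1229.7 CPM in pregnant, 489.6, 541 and 60.7 CPM in lactating and 698, 938 and 1184 CPM in post-weaning libraries, against 82.98, 35.3 and 96.3 CPM in virgin libraries. Apart from Lactating replicate 3, each later library was well above virgin (average log2 fold change 3.37 ± 0.62).

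Lists of other programs gave few calls. Of the 55 lists, 14 held at least 1 of the 36 genes and 41 held none, and 18 of the 36 genes were on no list. No gene was called among the 51 tested cell cycle genes (median average 0.83), the 68 oxidative phosphorylation genes (0.21), the 32 splicing and RNA-binding genes (-0.34), the 35 type I interferon response genes (-0.06), the 15 MHC class II genes (0.15), the 20 MHC class I genes (0.33), the 25 core macrophage identity genes (0.09) or the 76 ribosomal protein genes (0.08). Of lists of other cell types with no call, the average's median was -2.07 for 16 fibroblast genes (13 below 0), -1.19 for 19 endothelial genes (17 below 0) and -0.81 for 9 monocyte and neutrophil genes (6 below 0), or -1.71, -1.08 and -0.75 with genes absent from a stage set at their bound. These averages include the pregnancy falls given above. In lactation the 3 medians were -2.98, 1.19 and -0.02 in that order, or -1.22, 1.19 and -0.02 with genes absent from a stage set at their bound. After weaning they were -0.25, -0.04 and 0.265. Only 7, 2 and 3 of the genes were lower at all 3 stages. The endothelial list summed to 0.00220, 0.00901 and 0.185% of counts in Lactating replicates 1, 2 and 3, against 0.00807 to 0.0409% in virgin libraries. Its rise in lactation thus rested largely on Lactating replicate 3. Over all genes tested, 6772 of 12672 had an average below 0. The remaining lists with a called gene were the Fc receptors, with Fcrls of 7, and the osteoclast-like and foam-cell genes, with Acp5 higher and Trem2 lower of 17.

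**Figure D4:**
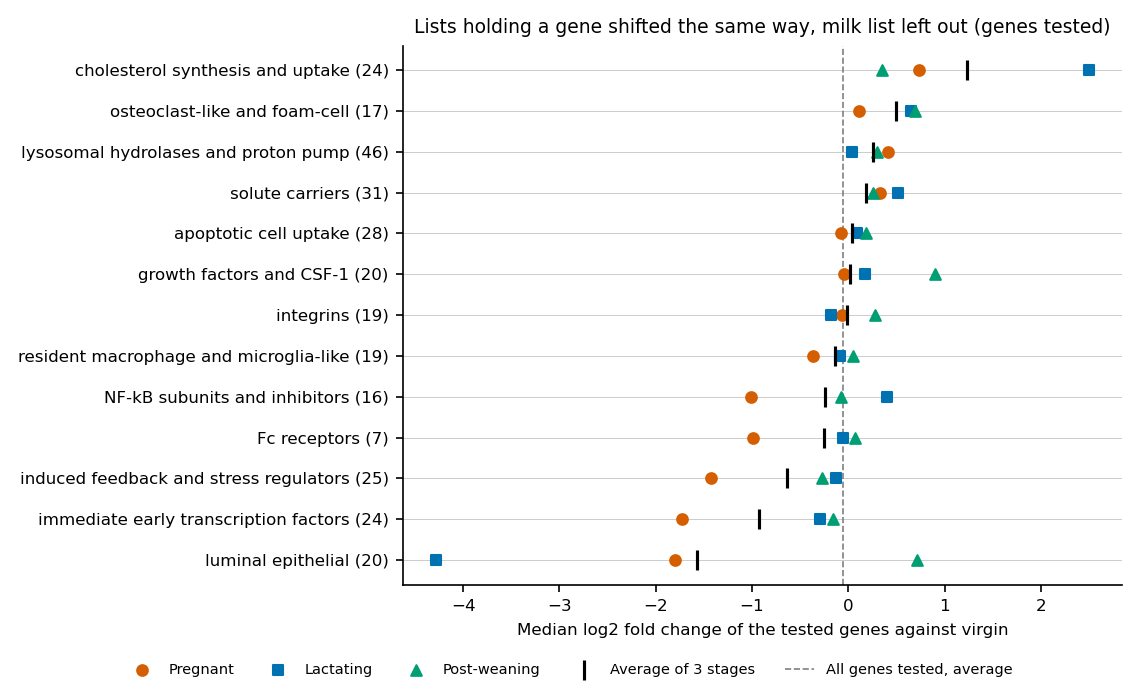
Median log2 fold change against virgin of the tested genes of each list (horizontal axis) in pregnancy (circles), lactation (squares) and after weaning (triangles), with the median of the average as a bar and that of all genes tested as a dashed line; numbers of tested genes are in brackets, and the milk list, with a median of 5.91, is left out. The early response lists lie left of the line mainly in pregnancy, and the cholesterol list lies right of it mainly in lactation.

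Without Lactating replicate 3, edgeR called 173 of 13426 genes on the average in the same direction at all later stages (1.29%), 64 higher and 109 lower. The count of immediate early genes was then 6 of 24, all lower (Egr1, Fosl2, Ier2, Ier5, Jun and Klf6). Of the lists with no call when all 12 libraries were used, the splicing list then had 3 lower genes (Clk1, Hnrnph1 and Srsf3), the core macrophage list 1 higher gene (Lyz2), the fibroblast list 2 lower genes (Col1a1 and Sparc) and the endothelial list 1 lower gene (Esam). In that fit 9 genes (0.0670%) were called at each of the 3 stages, all higher: Csn1s1, Csn2, 1700071M16Rik, Colec12, Adamdec1, Cyp51, Bhlhe40, Zmynd15 and Acp5. Among these, Bhlhe40 had log2 fold changes of 1.83 in pregnancy, 2.29 in lactation and 1.503 after weaning, with adjusted p = 0.000768, 0.000371 and 0.0223. Adamdec1 reached 4.06, 2.80 and 3.73 in the same order, and Cyp51, a sterol demethylase gene, 1.93, 4.85 and 1.94. These genes were named after their values were seen.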

How the data were processed

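Per the labels' protocols, RNA came from freshly sorted cells, cDNA from the SMART-Seq v4 kit, which adds no molecular identifiers, and all libraries were sequenced in 1 run. The authors deposited raw counts of reads per gene for 27179 genes, made with featureCounts on mm10 per the submitters' processing notes. Neither the aligner nor the strand setting was given in the sources used here. The 12 tables equalled the table of the series. Symbols and coordinates came from RefSeq (GRCm38.p6), which matched 25275 genes (93.0%); genes without a match held at most 0.825% of a library's counts.

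Groups follow the stage named for each sample. The members, gene lists and tests were chosen with earlier results of these data known. Genes with low counts were removed with filterByExpr, leaving 12672, and edgeR 4.0.16 in R 4.3.3 fitted a robust quasi-likelihood model with TMM scaling and a mean per stage. The contrast was the mean of the 3 later stages minus virgin, with Benjamini-Hochberg adjustment over all genes, and p under 0.05 was called. The common biological coefficient of variation was 0.856. CPM were computed here on TMM-scaled totals. The procedure was tested on simulated data. Named genes were the up to 15 largest rises and falls with no overlap, an official symbol and a mean log2 CPM of at least 3, which took 23, up to 3 genes of each list with at least 2 called, and fixed macrophage markers. The other genes of the 36, and names beside counts of 5 or fewer, were named after their values were seen. Alternatives were DESeq2 1.42.0, limma-voom 3.58.1 with and without quality weights, RLE scaling, TMM without milk, epithelial, ribosomal and mitochondrial genes, other filters, a 2-group fit, a replicate block, and leaving out each stage or library. Recomputing the count bounds with each library left out was chosen after seeing the data. No pair of replicates was identical: their chi-square per degree of freedom was at least 31.4.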

Additional observations from a re-analysis of the deposited data

Results flagged for a closer look

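For 19 of the 36 genes the size of the difference from virgin itself differed among pregnancy, lactation and the post-weaning stage, in edgeR's test of the 3 later stages, adjusted over all 12672 genes. Adjusted p-values follow in brackets. Among the higher genes these were Rilpl2 (0.00092), Slc38a1 (0.0043), Zmynd15 (0.00702) and Csf1 (0.0468), each highest in lactation, and Fastkd3 (0.0352), highest in pregnancy. Among the lower genes, the early response and feedback genes were Btg2 (0.00714), Klf6 (0.00821), Egr1 (0.0116), Phlda1 (0.0328) and Nfkbiz (0.0495), each lowest in pregnancy. The surface and lipid mediator genes were Hpgd (0.00247), Trem2 (0.00789), Fcrls (0.0164) and Slco2b1 (0.0329), each nearest to virgin after weaning. The others were Zfp959 (0.00304), Gng12 (0.00442), Krt19 (0.00549), Gipc2 (0.0201) and Exoc6 (0.0243); all but Exoc6 had at most 2 counts over the lactating libraries. Zfp959 was nearest to virgin in pregnancy and the other 4 after weaning. The causes of these differences were not tested.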

How the results depend on the processing

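With all 12 libraries, 38 genes were called on the average, 36 of them in the same direction at all stages and 26 with no overlap. In that order the counts were 386, 334 and 112 with DESeq2, 115, 106 and 68 with limma-voom, 89, 82 and 51 with quality weights, 169, 162 and 113 without the lactating stage, 13, 12 and 11 without the post-weaning stage and 3, 3 and 3 without the pregnant stage. In a 2-group fit of edgeR that treats the 9 later libraries as 1 group all 3 counts were 0, with 852 genes at an unadjusted p under 0.05. Leaving out 1 library gave 0 to 194, 0 to 173 and 0 to 103. These 3 counts stayed within 1.5 times with no low-count filter, with a filter of 5 CPM, with RLE scaling, and with TMM from which the milk, epithelial, ribosomal and mitochondrial families were left out. Genes called at every stage numbered 0, but 45 with DESeq2, 3 with limma-voom, 1 with quality weights, 1 without the lactating stage, 6 without the post-weaning stage, and 0 to 9 with 1 library left out. Genes that differed among later stages numbered 421, but 1305, 794 and 1717 with DESeq2, limma-voom and quality weights, and 146 to 715 with 1 library left out.

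Correlations of deviations from the stage means ran from -0.08 to 0.0894 for same-numbered libraries and from -0.091 to 0.117 for other pairs. They showed no pairing by replicate number, but with 3 libraries a stage they cannot exclude one. A replicate block left 3, 3 and 2 genes, 0 at every stage and 235 that differed among later stages. Over all settings the 36 genes gave 861 values, of which 421 kept the call and 440 lost it. All 861 kept their sign, but the settings refit the libraries on which the genes were chosen, so this is no independent support. With 3 virgin libraries and a large spread, a gene not called here may still differ; the cause of each moved count was not tested.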
